A study of Mus musculus with 9 samples.

Results

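The genes described here encode the proteasome, its assembly factors and its regulators. They were chosen by symbol (Psma, Psmb, Psmc, Psmd, Psme, Psmf or Psmg followed by a digit, pseudogenes left out), which picked 46 of the 11802 listed genes. Psmc3ip, whose product works in meiotic recombination, matched the pattern by name only and was set apart, which left 45 proteasome genes. Ribosome-bound RNA had been captured from white adipose tissue of mice in which the Pdgfb-iCreERT2 driver, active in endothelial cells, switches on an HA-tagged ribosomal protein (Rpl22HA). The 4 libraries labelled WT came from Pdgfb-iCreERT2:Rpl22HA mice, and the 5 labelled KO from Mfn2iΔEC:Rpl22HA mice with the same driver and tag, in which the mitochondrial fusion gene Mfn2 is missing from the endothelium. All 9 libraries therefore shared the Cre driver and the tagged ribosome. Not given in the sources used here are the ages, the sexes and how the Cre was induced. Replicates are called biological but no animals are named, so a p-value here measures only the spread among libraries, which may in part be technical.

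The 26S proteasome degrades proteins that carry ubiquitin chains. Its 20S core is a barrel of outer alpha rings and inner beta rings, with proteolytic sites on Psmb5 (chymotrypsin-like), Psmb6 (caspase-like) and Psmb7 (trypsin-like). The 19S cap binds ubiquitin, and its Psmc ATPases unfold the substrate and thread it into the core. Interferon induces Psmb8, Psmb9 and Psmb10, which replace Psmb5, Psmb6 and Psmb7 in the immunoproteasome and change which peptides are cut for display on MHC class I, a presentation route that endothelial cells also use. Psme proteins are alternative caps that open the core without ATP.

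In CPM, reads scaled to a common total as deposited, all 45 proteasome genes had a higher fitted mean in the libraries labelled KO, and 26 of the 45 (57.8%) were called higher, against 32.0% of all 11802 genes. A call is an adjusted p under 0.05 in limma on log2(CPM + 1), over all genes. No proteasome gene was called lower, against 0.203% of all genes. An unadjusted p under 0.05 was found as higher for 37 of 45 (49.7% of all genes) and as lower for 0 (0.356%). Most genes moved the same way: the median log2 fold change, KO minus WT, was 1.10 over all genes and 1.34 over the 45. Differences are therefore also given relative to the library median, the median log2 value of all genes in that library, which was 3.46 ± 0.506 (SD, n = 4) in WT and 4.44 ± 0.182 (SD, n = 5) in KO. On that relative scale 0 of the 45 were called higher, against 0.0339% of all genes, and 0 lower, against 0.0763%. An unadjusted limma p under 0.05 was found for 9 of the 45 (20.0%) as higher, against 5.99% of all genes, and for 0 as lower, against 5.69%. Of these 9, 5 had entered the table only through their reads in KO, as described below. On reads recovered from the CPM, edgeR with its TMM scaling called 0 proteasome genes higher (0.00847% of all genes) and 0 lower (0.0339%). At an unadjusted p under 0.05 it gave 5 of 45 as higher (5.21%) and 0 as lower (5.97%). DESeq2 on the same reads called 0 higher (0.357% of genes with an adjusted p) and 0 lower (1.38%), and at an unadjusted p under 0.05 gave 7 of 45 as higher (6.24% of all genes) and 0 as lower (6.50%). The relative log2 fold change was above 0 for 36 of the 45 (80.0%), against 57.9% of all genes, with a median of 0.37 against 0.12. In bulk captures, fewer cells of a type and less RNA per cell cannot be told apart.

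Several measures of the libraries moved with these differences. Recovered reads ranged from 1034753 to 2501048 in WT and from 1615968 to 3829356 in KO, and mitochondrial ribosomal RNA took 13.9% to 64.8% of reads in WT and 12.8% to 25.2% in KO. Once CPM were rescaled without that RNA, 0 of 45 proteasome genes were called higher (0.178% of all genes), with a median log2 fold change of 0.81 over the 45 and 0.58 over all genes. The 14 endothelial marker genes were all listed and summed to 997 to 3432 CPM in WT and 2971 to 6966 CPM in KO, so the labelled cell type was present in every library. None of the 14 was at 0 in any library. With the mean of that list as a covariate, 0 of 45 and 0 of all 11802 genes were called, and the median log2 fold change was 0.31 over the 45 and 0.33 over all genes. Of 10 leukocyte markers, which matter here because leukocytes express the immunoproteasome, 7 were listed and Cd3e, Cd52 and Cd79a were not. The listed 7 summed to 88.7 to 461 CPM in WT and 170 to 358 CPM in KO. Of 8 skeletal muscle markers, 7 were listed, with sums of 47.7 to 127 CPM in WT and 302 to 6884 CPM in KO. The 4 listed pericyte and smooth muscle markers of 6 (Rgs5 and Tagln were not) summed to 80.8 to 208 CPM in WT and 244 to 407 CPM in KO, also without overlap. Sums of the 8 adipocyte markers (773 to 1533 CPM in WT, 1241 to 2545 CPM in KO) and of the 5 listed fibroblast markers of 6 (2669 to 8836 CPM in WT, 1627 to 12676 CPM in KO) overlapped. All these sums are in CPM, where 94.6% of all genes had a log2 fold change above 0. Relative to the library median, the median log2 fold change was 2.28 for skeletal muscle and 0.45 for endothelial markers. It was −0.020 for pericyte and smooth muscle, −0.30 for leukocyte, −0.31 for adipocyte and −0.51 for fibroblast markers, against 0.12 over all genes. The part of other cell types in the results below was not tested. The targeted gene Mfn2 was at 20.3, 55.8, 30.5 and 38.0 CPM (WT replicates 1 to 4) and 129.6, 35.4, 57.0, 65.6 and 46.0 CPM (KO replicates 1 to 5). The groups overlapped, with a log2 fold change of 0.81 (limma SE 0.446, adjusted p = 0.131), so the 2 sets of labels could not be told from RNA of the targeted gene, and the directions given here rely on those labels.

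The deposited table itself shaped which proteasome genes could be seen. Every listed gene had at least 11 reads in at least 3 libraries. All 45 proteasome genes reached this in 3 or more KO libraries, and 31 also in 3 or more WT libraries. The other 14 were therefore listed because of their reads in KO. Whether a gene reached 11 reads depended on the depth of a library, given above, as well as on its abundance. Among the 31, 17 (54.8%) were called higher in CPM and the median relative log2 fold change was 0.19. The same counts over all genes at that level in WT were 33.2% of 6814 genes and a median of −0.016. The 14 were Psma1, Psma2, Psma3, Psma5, Psma6, Psmb3, Psmb5, Psmb7, Psmc6, Psmd5, Psmd10, Psmd14, Psmf1 and Psmg2. Of these, 9 (64.3%) were called, with a relative median of 0.84, against 30.5% of 4988 genes below that level in WT, with a relative median of 0.34. Listing through KO alone favours genes that are higher there, so the fold changes and p-values of these 14 are given below as a description. Annotated genes that match the pattern but were not listed were Psma8, Psmb11, Psmg3 and Psmg4, which are not analysed here.

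**Figure D1:**
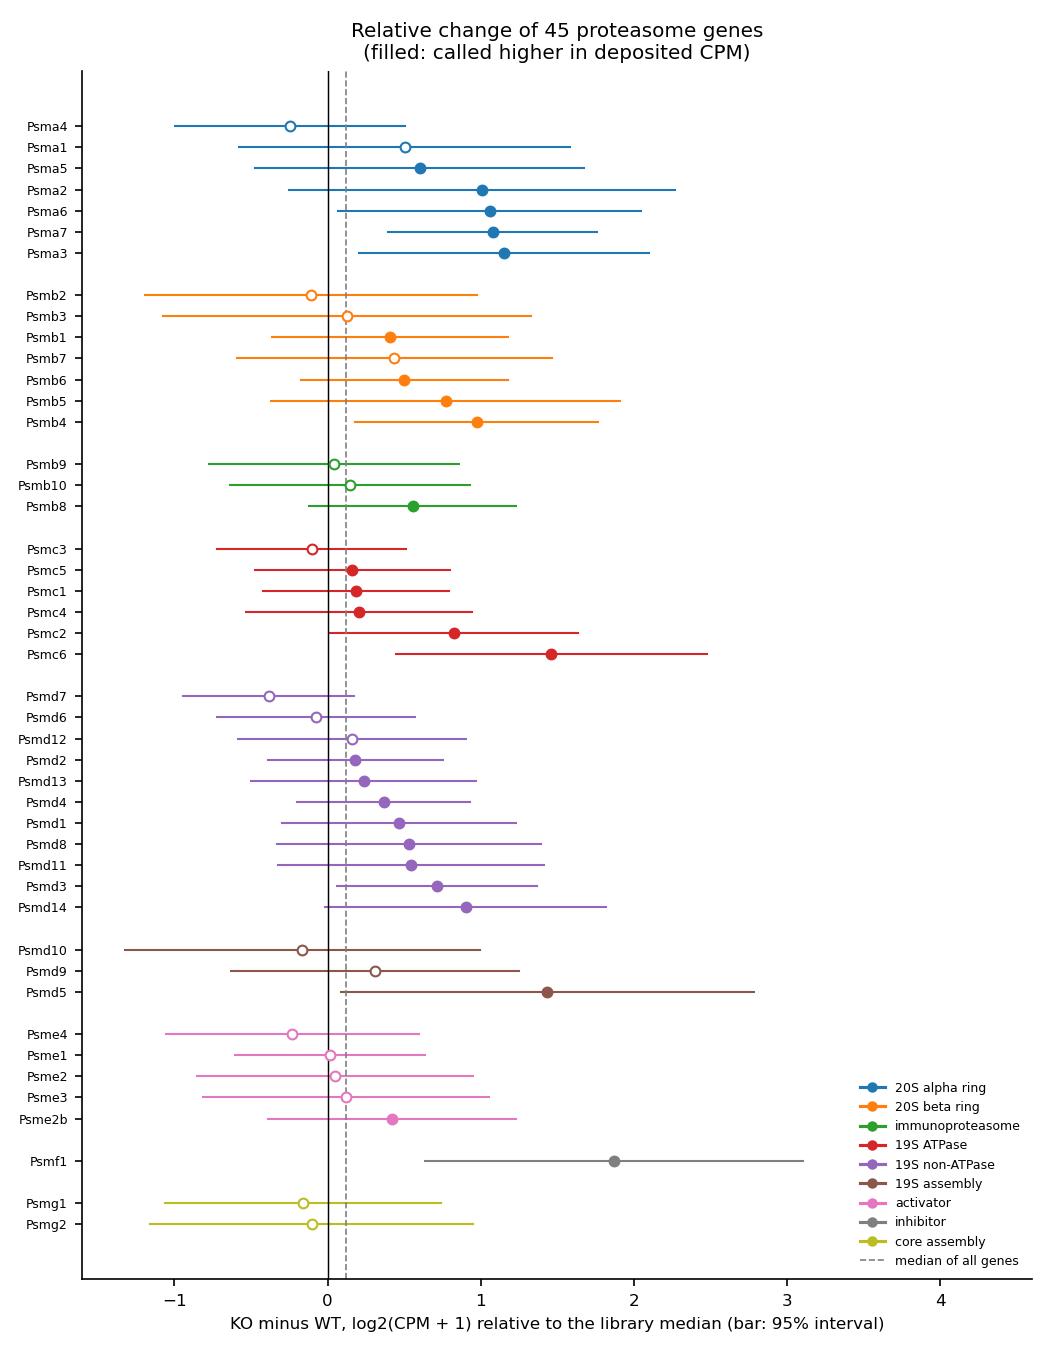
Log2 fold change (KO minus WT, log2(CPM + 1) relative to the library median) of each of 45 proteasome genes with its 95% interval, grouped by class, with 4 WT and 5 KO libraries. Filled points mark the 26 genes called higher in the deposited CPM, the dashed line the median of all genes at 0.12. Points run from −0.39 (Psmd7) to 1.87 (Psmf1), and 36 lie to the right of 0.

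The alpha ring forms the gate of the 20S core and docks the caps. Of its 7 genes, 5 were called higher in CPM (Psma2, Psma3, Psma5, Psma6 and Psma7), against 32.0% of all genes. Psma1 and Psma4 were not called. Relative to the library median their differences ran from −0.25 to 1.15 with a median of 1.01. Of the 7, 5 (Psma1, Psma2, Psma3, Psma5 and Psma6) are among the genes listed only through KO, and the relative values of Psma4 and Psma7, which also reached the read level in WT, were −0.25 and 1.08. Psma7 (ENSMUSG00000027566; chromosome 2, 180036374 to 180042433, minus strand; coordinates here and below are GRCm38) had the highest level of the ring in CPM. It was at 14.8, 18.99, 12.1 and 43.7 CPM (WT replicates 1 to 4) and 56.2, 81.2, 83.7, 83.2 and 141 CPM (KO replicates 1 to 5). No KO library overlapped a WT library, and WT replicate 4 was the highest of its group. The log2 fold change was 2.05 (limma SE 0.445, adjusted p = 0.00417) in CPM and 1.08 (limma SE 0.328, adjusted p = 0.203) relative to the library median, with a 95% interval of 0.39 to 1.76. Psma3 (ENSMUSG00000060073; chromosome 12, 70974621 to 70996347, plus strand) was at 2.70, 17.4, 5.78 and 9.50 CPM (WT replicates 1 to 4) and 44.9, 13.4, 48.0, 29.9 and 64.0 CPM (KO replicates 1 to 5). KO replicate 2 fell below WT replicate 2, and the other 4 KO libraries lay above every WT library. Its log2 fold change was 2.13 (limma SE 0.54, adjusted p = 0.00798) in CPM and 1.15 (limma SE 0.455, adjusted p = 0.326) relative, the highest relative value of the ring. Psma6 (ENSMUSG00000021024; chromosome 12, 55384222 to 55418454, plus strand) had the lowest mean of the ring and was at 4.95, 3.96, 1.58 and 6.65 CPM (WT replicates 1 to 4) and 16.7, 12.4, 24.5, 22.8 and 21.9 CPM (KO replicates 1 to 5). The groups did not overlap in CPM, with a log2 fold change of 2.03 (limma SE 0.569, adjusted p = 0.0121), or 1.06 relative. Psma4 (ENSMUSG00000032301; chromosome 9, 54950790 to 54958030, plus strand) stood at the other end, with 23.9, 19.4, 24.2 and 31.4 CPM (WT replicates 1 to 4) and 63.1, 39.2, 23.4, 46.9 and 42.7 CPM (KO replicates 1 to 5). Here KO replicate 3 lay within the WT range, and the difference of 0.73 (limma SE 0.449, adjusted p = 0.174) in CPM did not pass the test. Relative to the library median it was −0.25, the lowest of the ring.

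The beta ring carries the active sites. Of its 7 constitutive genes, 4 were called higher in CPM (Psmb1, Psmb4, Psmb5 and Psmb6), against 32.0% of all genes. Relative differences ran from −0.11 (Psmb2) to 0.97 (Psmb4), with a median of 0.44. Psmb4, a structural subunit whose product also takes part in joining the core during assembly (ENSMUSG00000005779; chromosome 3, 94884093 to 94886961, minus strand), was at 9.45, 10.3, 6.83 and 26.6 CPM (WT replicates 1 to 4) and 27.3, 33.9, 68.9, 49.2 and 79.0 CPM (KO replicates 1 to 5). Each KO library lay above each WT library, although WT replicate 4 and KO replicate 1 nearly touched. The log2 fold change was 1.95 (limma SE 0.488, adjusted p = 0.00777) in CPM and 0.97 (limma SE 0.38, adjusted p = 0.321) relative. Psmb2 (ENSMUSG00000028837; chromosome 4, 126677630 to 126709714, plus strand) was at 12.2, 5.14, 3.15 and 24.7 CPM (WT replicates 1 to 4) and 7.89, 14.8, 27.8, 21.7 and 17.5 CPM (KO replicates 1 to 5). The groups overlapped throughout, with a log2 fold change of 0.87 (limma SE 0.575, adjusted p = 0.204). Psmb3 (ENSMUSG00000069744; chromosome 11, 97703399 to 97713500, plus strand), the least abundant gene of the ring, was at 0, 5.54, 6.30 and 4.75 CPM (WT replicates 1 to 4) and 6.98, 5.73, 7.21, 12.3 and 7.72 CPM (KO replicates 1 to 5). The value of 0 in WT replicate 1 stood beside 4.75 to 6.30 CPM in the other WT libraries, and the log2 fold change of 1.10 (limma SE 0.657, adjusted p = 0.162) did not pass the test.

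The 3 constitutive proteolytic subunits differed in level and in how far they were called. Psmb6 (ENSMUSG00000018286; chromosome 11, 70525367 to 70527858, plus strand) was at 22.9, 40.4, 20.0 and 71.3 CPM (WT replicates 1 to 4) and 52.2, 92.7, 119.7, 110.1 and 130.4 CPM (KO replicates 1 to 5). Psmb5 (ENSMUSG00000022193; chromosome 14, 54614119 to 54618022, minus strand) was at 2.70, 9.10, 1.58 and 16.1 CPM (WT replicates 1 to 4) and 6.07, 26.3, 23.1, 32.2 and 28.3 CPM (KO replicates 1 to 5). Psmb7 (ENSMUSG00000026750; chromosome 2, 38588036 to 38644087, minus strand) was at 5.85, 3.16, 2.63 and 15.2 CPM (WT replicates 1 to 4) and 13.1, 16.7, 17.7, 10.5 and 25.7 CPM (KO replicates 1 to 5). In all 3 genes WT replicate 4 was the highest WT library and overlapped the KO range. The log2 fold change was 1.48 (limma SE 0.435, adjusted p = 0.015) for Psmb6 and 1.75 (limma SE 0.602, adjusted p = 0.0281) for Psmb5. For Psmb7 it was 1.41 (limma SE 0.58, adjusted p = 0.0547) and just missed the threshold. Relative to the library median the values were 0.50, 0.77 and 0.44, none of them called. Psmb5 reads are uncertain, because 88.4% of its transcript matches copies elsewhere, chiefly the processed pseudogene Gm3375 at 98.9% identity.

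Of the 3 immunoproteasome subunits, Psmb8 was called higher in CPM, against 32.0% of all genes, while Psmb9 and Psmb10 were not. Psmb8 and Psmb9 lie beside the Tap genes in the MHC region of chromosome 17. Psmb8 (ENSMUSG00000024338; chromosome 17, 34197721 to 34201454, plus strand) was at 18.9, 31.6, 13.7 and 54.2 CPM (WT replicates 1 to 4) and 54.6, 73.1, 71.8, 93.7 and 100.3 CPM (KO replicates 1 to 5). Every KO library lay above every WT library, by a narrow margin between WT replicate 4 and KO replicate 1. The log2 fold change was 1.53 (limma SE 0.441, adjusted p = 0.0136), and 0.56 (limma SE 0.324, adjusted p = 0.527) relative to the library median. Psmb9 (ENSMUSG00000096727; chromosome 17, 34181987 to 34187764, minus strand) was at 12.2, 15.4, 7.35 and 18.1 CPM (WT replicates 1 to 4) and 16.7, 26.8, 26.0, 29.3 and 39.1 CPM (KO replicates 1 to 5). WT replicate 4 lay above KO replicate 1, and the log2 fold change was 1.02 (limma SE 0.495, adjusted p = 0.0931), with 0.044 relative. Psmb9 shares 212 bases at 100% identity with its neighbour Tap1, and the library kit does not mark the strand. Psmb10 (ENSMUSG00000031897; chromosome 8, 105935735 to 105938444, minus strand) was at 16.2, 41.9, 17.3 and 107 CPM (WT replicates 1 to 4) and 52.2, 49.7, 124, 107 and 68.7 CPM (KO replicates 1 to 5). WT replicate 4 exceeded 4 of the 5 KO libraries, and the log2 fold change was 1.13 (limma SE 0.472, adjusted p = 0.0585), with 0.15 relative. WT replicate 4 also had the highest leukocyte marker sum, 461 CPM, while the other 3 WT libraries had 88.7, 163 and 110 CPM. The part of leukocyte RNA in the Psmb10 values was not tested.

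**Figure D2:**
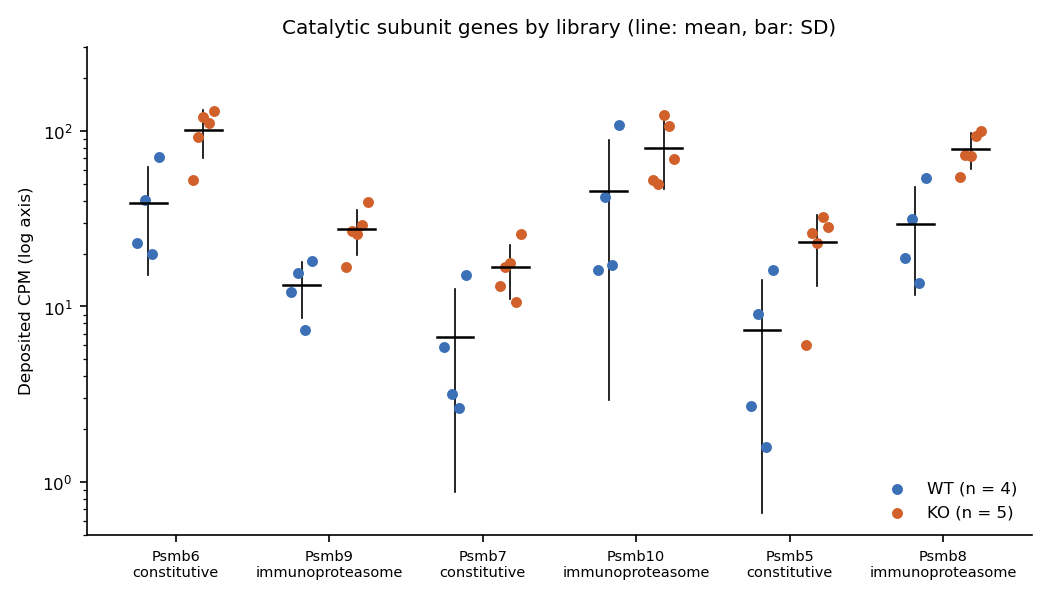
Deposited CPM on a log axis of the 3 constitutive proteolytic subunits, each beside the immunoproteasome subunit that replaces it, in 4 WT and 5 KO libraries (points), with the mean (line) and SD (bar). Psmb8 was the only gene of the 6 in which no KO library overlapped a WT library.

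The RNA of each immunoproteasome subunit was also set against that of the subunit it replaces, as a ratio in which the scaling of a library cancels apart from the pseudocount. Which subunits sat in assembled particles was not measured. The log2 ratio of CPM + 1 of Psmb8 to Psmb5 was 2.43, 1.69, 2.51 and 1.69 (WT replicates 1 to 4) and 2.98, 1.44, 1.60, 1.51 and 1.79 (KO replicates 1 to 5). KO replicate 1 had the highest ratio of all 9 libraries and KO replicate 2 the lowest, so the groups overlapped. Means were 2.08 ± 0.450 (SD, n = 4) and 1.86 ± 0.636 (SD, n = 5), a difference of −0.21 (exact two-sided permutation p = 0.627, adjusted over the 3 ratios 0.627). It moved from −0.072 without WT replicate 3 to −0.49 without KO replicate 1, with exact p-values of 0.857 and 0.114. For Psmb9 to Psmb6 the log2 ratio was −0.86, −1.33, −1.33 and −1.92 in WT and −1.59, −1.76, −2.16, −1.88 and −1.71 in KO. Apart from WT replicate 4, every WT library lay above every KO library. The mean was −1.36 ± 0.433 (SD, n = 4) in WT and −1.82 ± 0.218 (SD, n = 5) in KO. That difference of −0.46 did not pass the test (exact two-sided permutation p = 0.0794, adjusted 0.238). Without WT replicate 4 it was −0.64, with an exact p = 0.0179, the smallest that 3 against 5 libraries allow, or 0.0536 adjusted. Without WT replicate 1 it was −0.29, with an exact p = 0.179. Psmb10 to Psmb7 had means of 2.44 ± 0.856 (SD, n = 4) and 2.16 ± 0.796 (SD, n = 5), a difference of −0.29 (exact two-sided permutation p = 0.611, adjusted 0.627), and it ranged from −0.66 without WT replicate 1 to 0.021 without WT replicate 2. The smallest p that 4 against 5 libraries allow was 0.00794. At a pseudocount of 5 the differences turned to 0.15 for Psmb8 to Psmb5 and 0.043 for Psmb10 to Psmb7, neither of which passed the test.

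**Figure D3:**
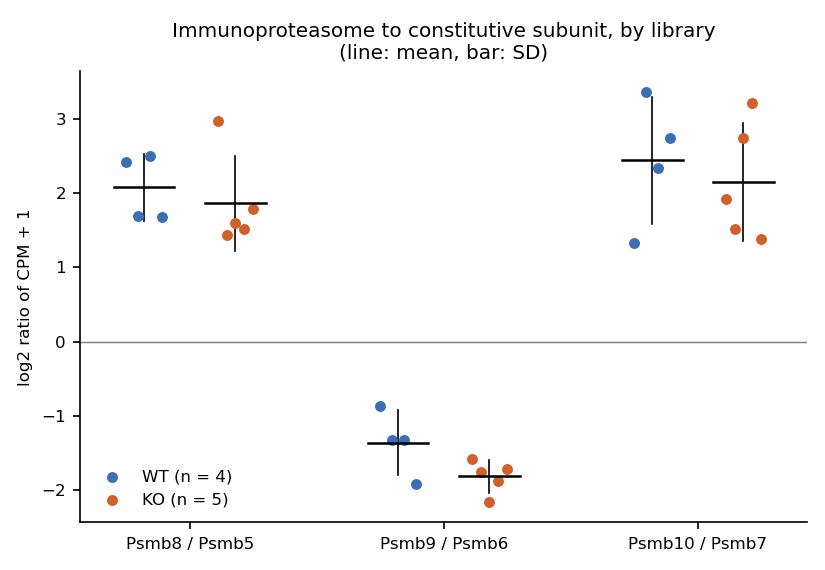
Log2 ratio of CPM + 1 of each immunoproteasome subunit to the constitutive subunit it replaces, in 4 WT and 5 KO libraries (points), with the mean (line) and SD (bar). The groups overlap in all 3 ratios, and for Psmb9 to Psmb6 the overlap comes from WT replicate 4 at −1.92.

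The 19S cap is built from the ring of 6 Psmc ATPases and from Psmd subunits that hold the scaffold, the ubiquitin receptors and the deubiquitinase. Of its 17 genes, 13 were called higher in CPM, against 32.0% of all genes. These were 5 of 6 ATPases and 8 of 11 others, and Psmc3, Psmd6, Psmd7 and Psmd12 were not called. The ATPases spanned relative differences from −0.10 (Psmc3) to 1.46 (Psmc6) with a median of 0.20. Psmc6 (ENSMUSG00000021832; chromosome 14, 45329788 to 45349705, plus strand) was at 1.35, 3.96, 3.15 and 14.2 CPM (WT replicates 1 to 4) and 16.4, 16.2, 56.3, 19.9 and 49.1 CPM (KO replicates 1 to 5). Every KO library lay above every WT library, with WT replicate 4 close below, and KO replicates 3 and 5 stood far above the other 3. The log2 fold change was 2.44 (limma SE 0.584, adjusted p = 0.00675) in CPM and 1.46 (limma SE 0.488, adjusted p = 0.246) relative. Psmc3 (ENSMUSG00000002102; chromosome 2, 91054009 to 91066369, plus strand), the most abundant ATPase gene in CPM, was at 23.4, 45.1, 51.5 and 108 CPM (WT replicates 1 to 4) and 75.3, 63.1, 93.8, 141 and 101 CPM (KO replicates 1 to 5). WT replicate 4 was exceeded by KO replicate 4 alone, and the log2 fold change of 0.87 (limma SE 0.431, adjusted p = 0.098) did not pass the test. Psmc2 (log2 fold change 1.80 (limma SE 0.487, adjusted p = 0.0107); 0.82 relative) was the other ATPase gene with an unadjusted p under 0.05 on the relative scale.

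Among the non-ATPase cap genes the relative differences ran from −0.39 (Psmd7) to 0.90 (Psmd14), with a median of 0.37. The products of these 2 genes form a heterodimer in the lid, in which Psmd14 is the deubiquitinase that removes ubiquitin chains from substrates. Psmd14 (ENSMUSG00000026914; chromosome 2, 61711694 to 61800376, plus strand) was at 2.25, 13.8, 5.25 and 11.4 CPM (WT replicates 1 to 4) and 18.2, 27.2, 31.4, 21.1 and 49.6 CPM (KO replicates 1 to 5). All KO values lay above all WT values, and the log2 fold change was 1.88 (limma SE 0.543, adjusted p = 0.0138) in CPM and 0.90 (limma SE 0.44, adjusted p = 0.438) relative. Psmd7 (ENSMUSG00000039067; chromosome 8, 107580381 to 107588464, minus strand), with the highest mean CPM of the 45 genes, was at 77.4, 117, 73.0 and 133 CPM (WT replicates 1 to 4) and 141, 153, 125, 135 and 184 CPM (KO replicates 1 to 5). WT replicate 4 lay inside the KO range, and the difference of 0.59 (limma SE 0.39, adjusted p = 0.203) in CPM did not pass the test. The relative value of −0.39 (limma SE 0.268, adjusted p = 0.602) did not pass either, with a 95% interval of −0.94 to 0.17. Psmd8 (ENSMUSG00000030591; chromosome 7, 29174188 to 29180701, minus strand), a lid subunit with the lowest mean of the 11, was at 3.60, 7.12, 8.40 and 14.2 CPM (WT replicates 1 to 4) and 19.4, 26.8, 22.7, 15.8 and 37.0 CPM (KO replicates 1 to 5). Its groups did not overlap, and the log2 fold change was 1.51 (limma SE 0.532, adjusted p = 0.0307). Psmd3, a lid subunit (log2 fold change 1.69 (limma SE 0.442, adjusted p = 0.00912); 0.72 relative), was the one cap gene whose groups also did not overlap on the relative scale. The ubiquitin receptor gene Psmd4 was called (log2 fold change 1.34 (limma SE 0.398, adjusted p = 0.0152); 0.37 relative). So was the scaffold gene Psmd2 (1.16 (limma SE 0.409, adjusted p = 0.0311); 0.18 relative), of whose transcript 98.2% matches the transcribed pseudogene Gm5422 at 96.4% identity.

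Of the 5 chaperones that build the cap and the core, 1 was called, against 32.0% of all genes. For the cap base these are Psmd5, Psmd9 and Psmd10, of which Psmd5 was called. Psmd5 (ENSMUSG00000026869; chromosome 2, 34849734 to 34874968, minus strand) was at 0.45, 1.98, 0.53 and 27.6 CPM (WT replicates 1 to 4) and 9.71, 9.08, 20.2, 29.9 and 41.2 CPM (KO replicates 1 to 5). WT replicates 1 to 3 were near 0, while WT replicate 4 exceeded 3 of the 5 KO libraries. The log2 fold change was 2.41 (limma SE 0.686, adjusted p = 0.0129) in CPM and 1.43 (limma SE 0.647, adjusted p = 0.396) relative, and leaving out WT replicate 4 raised the first to 3.39 and the second to 2.20. Psmd10, also known as gankyrin (ENSMUSG00000031429; chromosome X, 140948429 to 140956728, minus strand), was at 2.25, 1.58, 5.25 and 17.1 CPM (WT replicates 1 to 4) and 4.25, 6.21, 13.0, 11.7 and 12.1 CPM (KO replicates 1 to 5). WT replicate 4 was the highest of all 9 libraries, and the log2 fold change of 0.81 (limma SE 0.64, adjusted p = 0.282) did not pass the test. Psmd9 had 7.96 ± 5.25 CPM over the WT libraries (SD, n = 4) and 18.2 ± 6.19 CPM over the KO libraries (SD, n = 5), and its difference of 1.29 (limma SE 0.571, adjusted p = 0.0707) on the log2 scale did not pass the test. Psmg1 and Psmg2 form the dimer on which the alpha ring is assembled. Psmg1 (ENSMUSG00000022913; chromosome 16, 95979933 to 95990960, minus strand) was at 2.70, 13.8, 14.7 and 21.9 CPM (WT replicates 1 to 4) and 13.4, 15.3, 24.2, 25.8 and 24.2 CPM (KO replicates 1 to 5). Psmg2 was at 4.50, 3.96, 8.93 and 6.65 CPM (WT replicates 1 to 4) and 10.0, 15.8, 14.8, 12.3 and 6.43 CPM (KO replicates 1 to 5). KO replicate 5 lay below 2 WT libraries for Psmg2, and KO replicates 1 and 2 lay within the WT range for Psmg1. Neither difference passed the test, at 0.82 (limma SE 0.546, adjusted p = 0.209) and 0.87 (limma SE 0.58, adjusted p = 0.206), and both were below 0 relative to the library median (−0.16 and −0.10).

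Among the activators, which cap the core in place of the 19S particle, 1 of 5 was called higher, against 32.0% of all genes. Their relative median of 0.050 was close to the 0.12 of all genes. Psme1 and Psme2 form the interferon-inducible heteromeric cap that often pairs with the immunoproteasome. Psme1 (ENSMUSG00000022216; chromosome 14, 55578123 to 55581529, plus strand) was at 36.9, 34.0, 32.0 and 67.5 CPM (WT replicates 1 to 4) and 61.9, 83.6, 84.0, 70.3 and 119 CPM (KO replicates 1 to 5). Psme2 (ENSMUSG00000079197; chromosome 14, 55587441 to 55591113, minus strand) was at 25.2, 39.6, 6.83 and 74.1 CPM (WT replicates 1 to 4) and 54.9, 31.5, 62.0, 58.0 and 90.0 CPM (KO replicates 1 to 5). WT replicate 4 lay above KO replicate 1 for Psme1 and above 4 of 5 KO libraries for Psme2. Neither passed the test, with log2 fold changes of 0.99 (limma SE 0.415, adjusted p = 0.0581) and 1.03 (limma SE 0.492, adjusted p = 0.0895), and 0.015 and 0.050 relative. Psme2b (ENSMUSG00000078153; chromosome 11, 48945354 to 48946190, minus strand), the called gene, is a near copy of Psme2: the 2 transcripts share 794 bases at 99.4% identity, so reads could be assigned to either. It was at 16.6, 14.6, 8.40 and 53.2 CPM (WT replicates 1 to 4) and 49.8, 26.8, 60.6, 46.9 and 82.0 CPM (KO replicates 1 to 5), with a log2 fold change of 1.40 (limma SE 0.485, adjusted p = 0.0292). Psme3, which encodes the nuclear activator, had 13.5 ± 10.2 CPM over the WT libraries (SD, n = 4) and 24.9 ± 6.48 CPM over the KO libraries (SD, n = 5), and its difference on the log2 scale, 1.10 (limma SE 0.529, adjusted p = 0.091), did not pass the test. Psme4 (ENSMUSG00000040850; chromosome 11, 30771726 to 30880361, plus strand), whose product is a large single-chain activator, was at 6.75, 13.4, 14.7 and 20.0 CPM (WT replicates 1 to 4) and 36.4, 16.2, 23.4, 13.5 and 28.8 CPM (KO replicates 1 to 5). Its difference of 0.75 (limma SE 0.512, adjusted p = 0.219) did not pass the test and was −0.23 relative.

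Psmf1, which encodes a proteasome inhibitor and transport adaptor often called PI31, was detected almost entirely in the libraries labelled KO. Psmf1 (ENSMUSG00000032869; chromosome 2, 151715812 to 151744186, minus strand) was at 0, 0, 0 and 0.95 CPM (WT replicates 1 to 4) and 3.64, 7.65, 14.1, 7.61 and 7.46 CPM (KO replicates 1 to 5). This rested on 1 read in all WT libraries together and 109 reads in the KO libraries. Psmf1 was listed only through its KO libraries, which favours a difference in this direction, and its values are a description. On the relative scale, too, no KO library overlapped a WT library. In limma the log2 fold change was 2.84 (limma SE 0.677, adjusted p = 0.00668) in CPM and 1.87 (limma SE 0.593, adjusted p = 0.229) relative, and at such low levels its size depends on the pseudocount. Psmf1 had the lowest level per exon length of the 45 genes, and no WT library reached the 11 reads required of listed genes. A count of 0 allows up to 3 reads, which is 1.35, 1.19 and 1.58 CPM in WT replicates 1 to 3. WT replicate 4, the library with the fewest reads, held 1 read, for which no such limit is given. These limits are a description and do not test a difference.

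Counts of non-overlapping groups were read against all genes. In CPM, 15 of the 45 genes (33.3%) had every KO library above every WT library, against 18.7% of all genes. Relative to the library median these were Psma7, Psmd3 and Psmf1, 3 of 45 (6.67%), against 2.07% of all genes, and Psmf1 was listed only through KO. The reverse, every KO library below every WT library, was found for 0 of 45 on either scale, against 0.0254% and 1.74% of all genes. The 9 genes with an unadjusted relative p under 0.05 were Psma3, Psma6, Psma7, Psmb4, Psmc2, Psmc6, Psmd3, Psmd5 and Psmf1, with 4 in the core, 3 in the cap, 1 cap chaperone and the inhibitor. Psma3, Psma6, Psmc6, Psmd5 and Psmf1 among them were listed only through KO, which leaves Psma7, Psmb4, Psmc2 and Psmd3, 4 of the 31 genes that also reached the read level in WT. The share of all genes at that read level with such a p is not given here, so these 4 are a description.

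The proteasome genes were also summed within each library and set against all nuclear protein-coding CPM, a denominator that leaves out mitochondrial RNA. This share was 0.259%, 0.254%, 0.204% and 0.314% (WT replicates 1 to 4) and 0.283%, 0.323%, 0.364%, 0.366% and 0.412% (KO replicates 1 to 5). KO replicate 1 lay below WT replicate 4, and the other 4 KO libraries lay above every WT library. Group means were 0.258% ± 0.0452 (SD, n = 4) and 0.350% ± 0.0488 (SD, n = 5). For the alpha ring the share was 0.0212% ± 0.00497 in WT (n = 4) and 0.0388% ± 0.00625 in KO (n = 5), with ranges of 0.0144% to 0.0259% and 0.0317% to 0.0462%. Of those 7 genes 5 were listed only through KO, and the sum of Psma4 and Psma7 alone overlapped, at 0.00995% to 0.0164% in WT and 0.0163% to 0.0243% in KO. The 17 cap genes took 0.146% ± 0.0112 (n = 4) and 0.189% ± 0.0247 (n = 5), where the highest WT library, at 0.162%, and the lowest KO library, at 0.163%, almost met. Without Psmc6 and Psmd14, which were listed only through KO, the cap sums overlapped, with the highest WT library and the lowest KO library both at 0.157%. Over the 31 genes that reached the read level in WT, the share was 0.237% ± 0.0384 (SD, n = 4) in WT and 0.307% ± 0.0394 (SD, n = 5) in KO, a choice of genes made after seeing the data. For the beta ring (0.0261% and 0.0419%), the immunoproteasome (0.0215% and 0.0287%) and the activators (0.0331% and 0.0373%) the ranges of WT and KO overlapped. These shares are a description of the sums, with no test.

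**Figure D4:**
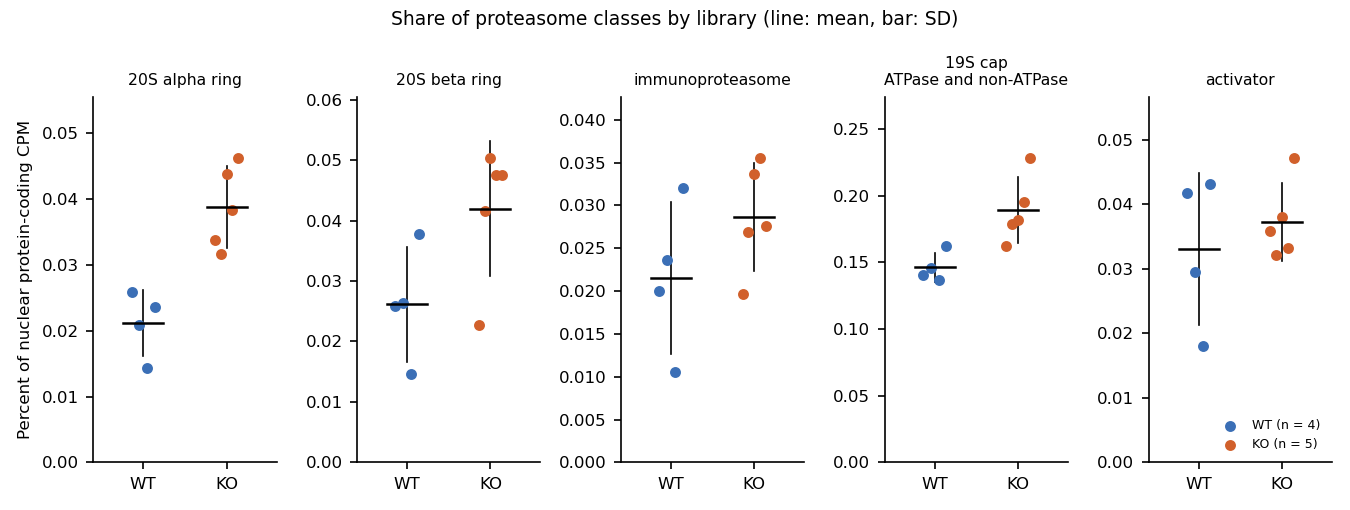
Percent of nuclear protein-coding CPM taken by each class of proteasome genes, in 4 WT and 5 KO libraries (points), with the mean (line) and SD (bar) and each vertical axis starting at 0. The alpha ring ranges from 0.0144% to 0.0259% in WT and from 0.0317% to 0.0462% in KO, with 5 of its 7 genes listed only through KO, while the activators overlap.

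The libraries of a group differed among themselves in a shared way. WT replicate 4 held the highest WT value in CPM for 36 of the 45 genes (80.0%), against 57.5% of all genes, and relative to the library median for 20 of 45 (44.4%), against 27.7%. KO replicate 1 held the lowest KO value on the relative scale for 25 of 45 (55.6%), against 28.0% of all genes. KO replicate 5 held the highest KO value in CPM for 24 of 45 (53.3%), against 34.5%. WT replicate 4 had the smallest number of recovered reads and, at 13.9%, a mitochondrial ribosomal RNA share within the KO range, where the other WT libraries had 47.5% or more. Leaving out WT replicate 4 raised the number of called proteasome genes from 26 to 38 (50.1% of all genes). Leaving out WT replicate 1 lowered it to 10 (9.27%), WT replicate 2 to 17 (24.3%) and WT replicate 3 to 11 (15.2%). Without KO replicate 1 it was 28 (29.7%) and without KO replicate 2 it was 26 (32.4%). Without KO replicate 3, 4 or 5 the number was 14 (14.3%), 16 (17.7%) and 14 (15.5%). The share of all genes called moved in the direction of the proteasome genes, except without KO replicate 1 or KO replicate 2. Without KO replicate 1 it fell while the proteasome number rose, and without KO replicate 2 the proteasome number stayed at 26. Calls for Psma3, Psma6, Psma7, Psmb4, Psmc2, Psmc6, Psmd3 and Psmf1, 8 of the 26, were kept whichever of the 9 libraries was left out. The other 18 were lost without at least 1 of them. The share of all called genes kept in this way is not given here, so the 8 are a description. Psma3, Psma6, Psmc6 and Psmf1 among the 8 were listed only through KO. The median coefficient of variation of the 45 genes was 0.646 in WT and 0.341 in KO, and over all genes 0.639 and 0.454.

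Levels were compared between genes as CPM per kb, in each group on its own, with merged exons as the length and, chosen after seeing the data, with the longest coding transcript. Although the subunits of the 20S core occur in equal numbers in the assembled particle, the level of their ribosome-bound RNA per kb of exon ranged from 1.40 (Psma2) to 20.6 (Psmb6) in WT and from 3.47 (Psmb3) to 53.97 (Psmb6) in KO. Per kb of transcript the range was 1.76 (Psma2) to 48.4 (Psmb6) in WT and 7.48 (Psma2) to 127 (Psmb6) in KO, so Psmb6 was the highest core gene by either length and the lowest depended on it. Psmd7 and Psmd4 were among the 5 highest of the 45 genes in both groups by either length, at 44.3 and 23.1 in WT and 65.4 and 60.2 in KO per kb of exon. Psmf1 was the lowest, at 0.0369 in WT and 1.26 in KO per kb of exon. The immunoproteasome subunit Psmb10 stood above Psmb7 in each of the 9 libraries, by 5.36 to 26.6 times per kb of exon and 2.36 to 11.7 times per kb of transcript. Psmb9 stood below Psmb6 in each library, at 0.111 to 0.271 of its level per kb of exon and 0.128 to 0.312 per kb of transcript. For Psmb8 and Psmb5 the order depended on the length, with Psmb8 at 0.740 to 2.39 of Psmb5 per kb of exon and 1.54 to 4.97 per kb of transcript. Lengths are from GENCODE M21, and near-identical copies make levels uncertain: 9 of the 45 genes (Psma4, Psma5, Psmb3, Psmb5, Psmc1, Psmd2, Psmd11, Psme2 and Psme2b) have at least 50% of their transcript matched by another gene at 95% identity or more.

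**Figure D5:**
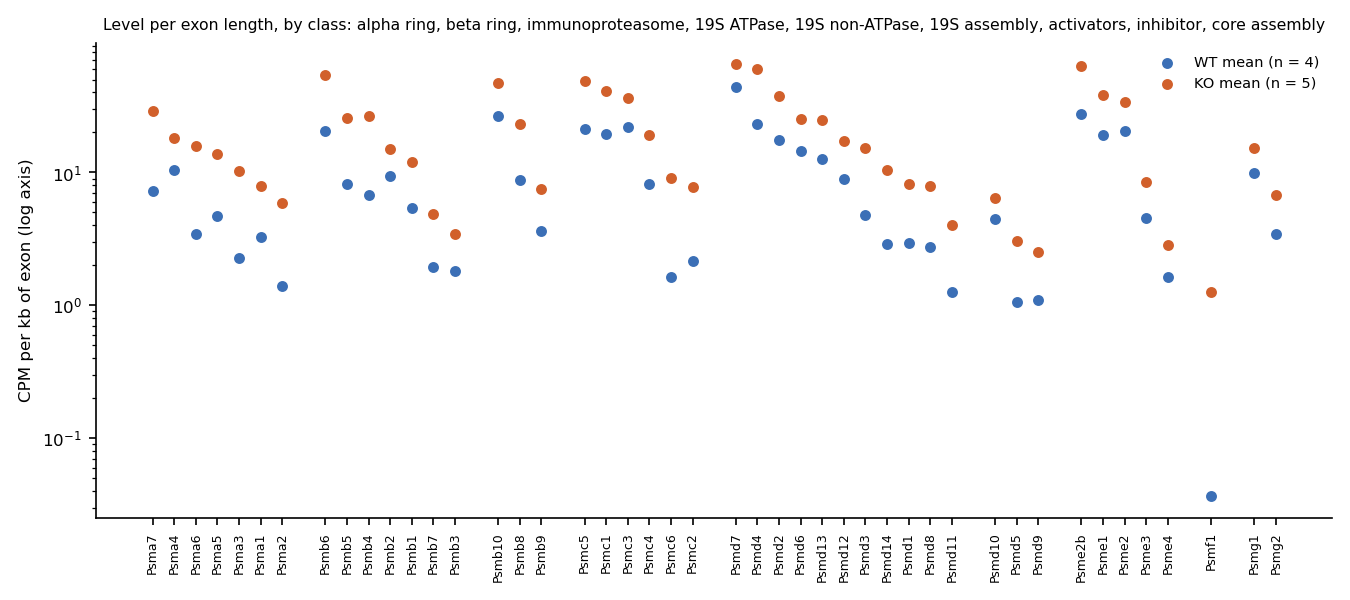
Mean CPM per kb of exon on a log axis for the 45 proteasome genes, ordered by class and then by level, with WT (n = 4) and KO (n = 5) means as points and no error shown. Levels within 1 ring differ several fold, and Psmf1 in WT rests on 1 read.

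Promoters were searched for motifs of the factors best known to drive these genes. NFE2L1, which is released from the endoplasmic reticulum when proteasome activity falls, and its relative NFE2L2 bind antioxidant response elements with the core TGACNNNGC. Interferon acts through the interferon-stimulated response element. RefSeq promoters (GRCm38.p6, 250 bases before to 50 after the start, both strands) were found for 38 of the 45 genes. TGACNNNGC occurred in 6 of 38 (15.8%: Psmb5, Psmb6, Psmc6, Psmd9, Psmd12 and Psme4), against 14.0% of 27025 genes with a promoter. The core of the interferon element occurred in 4 of 38 (10.5%: Psmb3, Psmd4, Psmd9 and Psme1), against 3.99%. The NF-Y box CCAAT, whose matches may overlap the others, occurred in 13 of 38 (34.2%), against 41.1%. The 180 bases before the start are shown for the 2 proteolytic subunit genes with TGACNNNGC (Psmb5 and Psmb6), for Psmd9, which holds both cores, and for Psmd4, the called gene with the interferon element, here on the opposite strand. Each is written 5′ to 3′ on the strand of its gene, with the matches in capitals. The Psmb5 window is chr14:54617996-54618175 (minus strand) and overlaps the first bases of the GENCODE model of Psmb5. The Psmb6 window chr11:70525177-70525356 (plus strand) ends before the GENCODE start of Psmb6, the Psmd4 window chr3:95042615-95042794 (minus strand) ends just before that of Psmd4, and the Psmd9 window chr5:123228010-123228189 (plus strand) lies within the long GENCODE span of Psmd9.
Psmb5: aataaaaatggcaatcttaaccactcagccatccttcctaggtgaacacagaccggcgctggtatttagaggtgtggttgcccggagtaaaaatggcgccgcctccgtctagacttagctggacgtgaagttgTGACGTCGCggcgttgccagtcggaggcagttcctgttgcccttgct
Psmb6: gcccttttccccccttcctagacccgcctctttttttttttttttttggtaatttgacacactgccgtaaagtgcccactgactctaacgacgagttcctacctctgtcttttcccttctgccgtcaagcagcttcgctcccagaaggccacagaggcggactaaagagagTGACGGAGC
Psmd9: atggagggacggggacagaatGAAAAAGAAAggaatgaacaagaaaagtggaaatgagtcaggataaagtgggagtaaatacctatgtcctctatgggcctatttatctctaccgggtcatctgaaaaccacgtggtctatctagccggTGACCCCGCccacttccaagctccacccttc
Psmd4: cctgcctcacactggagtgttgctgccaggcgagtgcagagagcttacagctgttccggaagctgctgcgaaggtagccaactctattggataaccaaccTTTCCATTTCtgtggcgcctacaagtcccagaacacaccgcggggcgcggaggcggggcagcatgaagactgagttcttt
The Psmb5 match begins 47 bases before the start and the Psmb6 match 9 bases before it. In Psmd9 the 2 matches begin 31 and 159 bases before the start, and in Psmd4 the match begins 80 bases before it. Of the 6 genes with TGACNNNGC, Psmb5, Psmb6 and Psmc6 were called higher in CPM and Psmd9, Psmd12 and Psme4 were not. Of the 4 with the interferon element, Psmd4 was called and Psmb3, Psmd9 and Psme1 were not. Both counts are small and are read against 32.0% of all genes called higher in CPM. A match describes these letters and is not evidence of binding.

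Genes that work with the proteasome but fall outside the symbol pattern were counted from a list of 38, of which 36 were listed. In CPM 25 of the 36 were called higher, against 32.0% of all genes, and 0 lower. Relative to the library median 0 were called in either direction, and their median was 0.46, against 0.12 over all genes. The subgroups that follow are small and are read against the same 32.0%. Of 9 proteins that bind the proteasome, 7 were called. The most abundant was Sem1, a small cap subunit, with 197 ± 99.7 CPM (SD, n = 4) in WT and 552 ± 208 CPM (SD, n = 5) in KO, and a difference on the log2 scale of 1.55 (limma SE 0.417, adjusted p = 0.0105). Of 4 genes for the transcription route, 3 were called. Nfe2l1 had 337 ± 121 CPM (SD, n = 4) and 991 ± 508 CPM (SD, n = 5). Its difference on the log2 scale was 1.48 (limma SE 0.426, adjusted p = 0.0136), or 0.51 relative (limma adjusted p = 0.582). Of 7 genes on the interferon and antigen presentation route, 5 were called, among them B2m, the light chain of MHC class I, with 1.07 (limma SE 0.417, adjusted p = 0.045), or 0.096 relative. Of 11 genes that unfold or deliver substrates, 8 were called. Vcp, the segregase ATPase, had 140 ± 84.1 CPM (SD, n = 4) and 383 ± 103 CPM (SD, n = 5), with 1.55 (limma SE 0.405, adjusted p = 0.00909). Of 5 genes for ubiquitin or the enzymes that activate it, 2 were called higher.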

How the data were processed

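The authors deposited CPM for 11802 genes in 4 WT and 5 KO libraries; 15 genes had no symbol in GENCODE M21. HISAT2 2.1.0, FastQC 0.11.9, Trimmomatic 0.39, R 4.0.2 and edgeR 3.32.0 are named by the submitters' processing notes, with GRCm38 (mm10) as build. How reads were counted, on which strand and against which annotation was not given in the sources used here. Per the labels' protocols, tagged ribosomes were captured from homogenised tissue with an antibody to HA, and a low-input kit made the cDNA. At least 99.98% of values were whole reads within 0.1 read. Columns summed to 946406 to 990292 CPM.

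limma 3.58.1 (R 4.3.3, trend) was fitted to log2(CPM + 1) of all genes, and again after subtracting each library's median, with Benjamini-Hochberg adjustment over all genes; a mean CPM minimum of 1 removed 0 genes. On this scale the change of a low gene is understated. Ratios were compared by exact two-sided permutation of the group labels. As alternatives, DESeq2 1.42.0 and edgeR 4.0.16 with its quasi-likelihood test were run on recovered reads. DESeq2 gave no adjusted p for 3 of the 45 genes. Transcript copies were found with blastn 2.17.0. Replicates of a group correlated at 0.745 to 0.880 across genes, which are not independent, and no 2 libraries were copies.

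The members, lists and tests were chosen with earlier results of these data known. Genes given by library were, in each class, those with the highest and lowest mean CPM and relative difference, with the 6 proteolytic subunits, Psme1 and Psme2; the others named belong to counts in the text. In data simulated for KO versus WT over 11802 genes, the libraries shared a common mean profile apart from the changed genes. There limma recovered 5 of 100 genes changed 2-fold and 52 of 100 changed 4-fold, with 3 false calls. On the relative scale most 2-fold changes would therefore be missed. The simulation does not describe the calls in CPM, where most genes moved the same way.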

Additional observations from a re-analysis of the deposited data

Results flagged for a closer look

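In 11 of 118 groups of values (9.32%), the highest library stood far from the others of its group by Dixon's criterion. Chance meets this criterion in about 1 of 20 groups if values are normally distributed and groups independent. These groups come from the same 9 libraries and are mostly CPM of single genes, so the 9.32% is a description and not an excess over chance. WT replicate 4 was the outlying library for Psma1 (26.6 CPM), Psmc5 (42.8 CPM), Psmd13 (101 CPM), Psmd5 (27.6 CPM), Psme1 (67.5 CPM) and Psmf1 (0.95 CPM, a single read beside 0 in the other WT libraries). KO replicate 5 was the outlying library for Psmd1 (116 CPM), Psmd12 (70.7 CPM) and Psmd2 (248 CPM), and for the share of the 19S non-ATPase genes in nuclear protein-coding CPM (0.169%). KO replicate 1 stood apart in the log2 ratio of Psmb8 to Psmb5 (2.98). WT replicate 4 was the WT library with the lowest mitochondrial ribosomal RNA share and the highest leukocyte marker sum, and KO replicate 5 had the highest skeletal muscle marker sum. The part of these in the values was not tested.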

How the results depend on the processing

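The number of proteasome genes called higher in CPM, 26, was 0 after rescaling without mitochondrial ribosomal RNA (0.178% of all genes) and with either the mitochondrial share (0.136%) or the endothelial list mean (0%) as a covariate. The members' median log2 fold change was then 0.81, 0.60 and 0.31, and that of all genes 0.58, 0.46 and 0.33. The count was 16 in edgeR with library totals (19% of all genes) and 10 to 38 when 1 library was left out. No pairing by replicate number was visible in the values. Same-numbered libraries deviated from their group means with correlations of −0.04 to 0.039 over 4 pairs. Of the 4 WT libraries, 1 correlated best with its own number. So few pairs cannot exclude a pairing. With the replicate number as a block the count was 15 (16.4% of all genes). KO replicate 5 has no WT library of its number, so it adds nothing to the difference in that fit. The median log2 fold changes, 1.17 over the 45 genes and 1.03 over all genes, were those found without KO replicate 5. Relative to the library median the count was 0 in both directions under every alternative run, in a design where the simulation recovered few 2-fold changes. The relative median of the 45 genes was 0.25 to 0.48 when 1 library was left out. At a pseudocount of 5 the ratio differences became 0.15 (Psmb8 to Psmb5) and 0.043 (Psmb10 to Psmb7), and the latter ranged from −0.66 to 0.021 over the libraries left out. The cause of these changes was not tested.

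Among the log2 fold changes of the genes given by library, 14 values in CPM and 66 relative values changed sign under an alternative, none of them past the threshold. After rescaling without mitochondrial ribosomal RNA these were in CPM Psmd7 −0.013, and relative Psme1 −0.025. With endothelial marker level as a covariate these were in CPM Psmb10 −0.67, Psmb2 −0.24, Psmb3 −0.066, Psmc3 −0.38, Psmd10 −0.81, Psmd5 −0.50, Psme2 −0.40 and Psmg1 −0.68, and relative Psma4 0.28, Psmb10 −0.44, Psmb9 −0.094, Psme1 −0.015, Psme2 −0.38 and Psmg2 0.25. With the mitochondrial ribosomal RNA share as a covariate these were in CPM Psmb10 −0.22, Psmc3 −0.20, Psmd10 −0.51, Psme2 −0.020 and Psmg1 −0.32, and relative Psma4 0.10, Psmb10 −0.58, Psmb3 −0.23, Psmd5 −0.36, Psme2 −0.39, Psme2b −0.054 and Psmg2 0.45. In DESeq2 these were relative Psmb10 −0.015, Psmb3 −0.061, Psmb9 −0.034, Psme1 −0.081 and Psme2 −0.25. In edgeR with TMM these were relative Psmb10 −0.020, Psmb3 −0.065, Psmb9 −0.038, Psme1 −0.084 and Psme2 −0.26. With array weights these were relative Psmb2 0.12, Psmb9 −0.019, Psmc3 0.037, Psmd10 0.20, Psme2 −0.042, Psmg1 0.00069 and Psmg2 0.010. At a pseudocount of 0.5 these were relative Psme1 −0.012. At a pseudocount of 5 these were relative Psmb3 −0.21 and Psmc3 0.050. With the replicate number as a block these were relative Psmb9 −0.040, Psme1 −0.070, Psme2 −0.067 and Psmg2 0.13. Without both WT replicate 4 and KO replicate 5, an alternative chosen after seeing the data, these were relative Psmb2 0.19, Psmb9 −0.091, Psmc3 0.070, Psmd10 0.14 and Psme1 −0.043. With 1 library left out, the relative values that changed sign ranged as follows: Psmb10 −0.13 to 0.48, Psmb2 −0.49 to 0.24, Psmb3 −0.35 to 0.43, Psmb9 −0.17 to 0.23, Psmc3 −0.25 to 0.057, Psmd10 −0.54 to 0.19, Psme1 −0.079 to 0.17, Psme2 −0.54 to 0.31, Psmg1 −0.52 to 0.0019 and Psmg2 −0.29 to 0.13. Depth limits the least abundant genes most, and 14 of 45 had fewer than 11 reads in 2 or more WT libraries.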
